A study of Mus musculus with 24 samples.

Results

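The comparison set the contralateral hippocampus of Neil2-KO mice against that of mice labelled Neil1-KO, at the 3 h and 6 h time points of neonatal hypoxia-ischemia. It used 8 of the 24 libraries of the series, namely every Neil2-KO and every labelled Neil1-KO library from the contralateral side, which gave 4 per genotype with 2 at each time. All of these mice were operated on at postnatal day 10, and both genotypes met the same insult, so no library came from an uninjured animal. In the usual form of this model the carotid artery is closed on the ipsilateral side and the pup then breathes low oxygen, so the contralateral hippocampus meets the hypoxia without the lost blood flow. The remaining 16 libraries, from wild-type (WT) mice and from the ipsilateral side, entered no test of this comparison and are quoted only to place its values. The Neil2-KO libraries were grouped by their titles, since their genotype tag names the other knockout. The labels do not state how either allele was made or in which cells it is inactive.

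Neil1 and Neil2 encode DNA glycosylases, enzymes that cut oxidized bases out of DNA as the opening step of base excision repair. They differ in preferred substrate, and both are known to act on lesions in single-stranded or bubble-like DNA, such as that opened during replication or transcription. The hippocampus of a mouse pup of this age is still being built. Granule neurons are being born and wired, and oligodendrocyte precursors are maturing into cells that wrap axons in myelin.

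The 8 libraries held 18098982 to 28750931 reads. Markers of the labelled tissue were abundant: the summed level of 11 excitatory neuron markers was 149800 to 157100 normalized counts in labelled Neil1-KO, against 166800 to 200700 in Neil2-KO. On the first principal component (26.4% of the variance) the labelled Neil1-KO libraries lay between -31 and -1.3 and the Neil2-KO libraries between 11 and 23. Neil2-KO 6 h replicate 2 stood apart on the second (-40.2) and had 10.8% of its reads on unnamed genes, against 8.407% to 9.055% in the other libraries. Xist, transcribed from the inactive X chromosome of females, was high in 3 libraries, both replicates numbered 2 of labelled Neil1-KO (10350 and 18160 normalized counts) and Neil2-KO 6 h replicate 2 (7604). It read 5.25 to 14.5 in the other 5, so the genotypes were not balanced in it. Ttr, a choroid plexus transcript, was high in labelled Neil1-KO 3 h replicate 1 (29290 normalized counts) and in Neil2-KO 6 h replicate 1 (29070), 3128 in Neil2-KO 3 h replicate 1, and 153.7 to 932.5 elsewhere. The titles call the libraries biological replicates without naming the animals, so p-values measure the spread between these libraries. The tissue was sequenced in bulk, so fewer cells of a type and less RNA per cell cannot be told apart in any value below.

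Neil2 transcripts were nearly absent from the Neil2-KO libraries, and Neil1 transcripts were not reduced in the libraries labelled Neil1-KO. Values are listed for 3 h replicates 1 and 2 and then 6 h replicates 1 and 2, here and throughout. Neil2 read 27.3, 21.8, 16.9 and 24.4 normalized counts in labelled Neil1-KO and 1.06, 1.07, 0 and 2.66 in Neil2-KO. The groups did not overlap, and the log2 fold change (Neil2-KO minus labelled Neil1-KO, on the log2(value + 1) scale) was -3.55 ± 0.46 (SE), with a Benjamini-Hochberg adjusted p of 0.00317 by limma over all genes. In pooled reads, 91 stood against 4, or 4.88% of the labelled Neil1-KO level (exact 95% interval for counting error only, 1.3% to 12.9%).

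Neil1 read 91.6, 104, 117 and 126 normalized counts in labelled Neil1-KO and 66.5, 90.6, 85 and 61.1 in Neil2-KO. The labelled Neil1-KO libraries were thus the higher ones, with no overlap, although the difference of -0.53 ± 0.17 was not called (limma adjusted p = 0.114). The 4 WT contralateral libraries read 88.8, 99.5, 56.8 and 83.3. These counts do not verify the Neil1-KO label. An exact permutation test within time, two-sided, gave p = 0.0556 for each gene, which is the smallest value that its 36 arrangements allow. Among 28 tested genes of base excision repair, Neil2 alone was called (3.57%, against 3.82% of all genes tested). Their median log2 fold change was -0.085 against 0.01 over all genes tested.

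**Figure D1:**
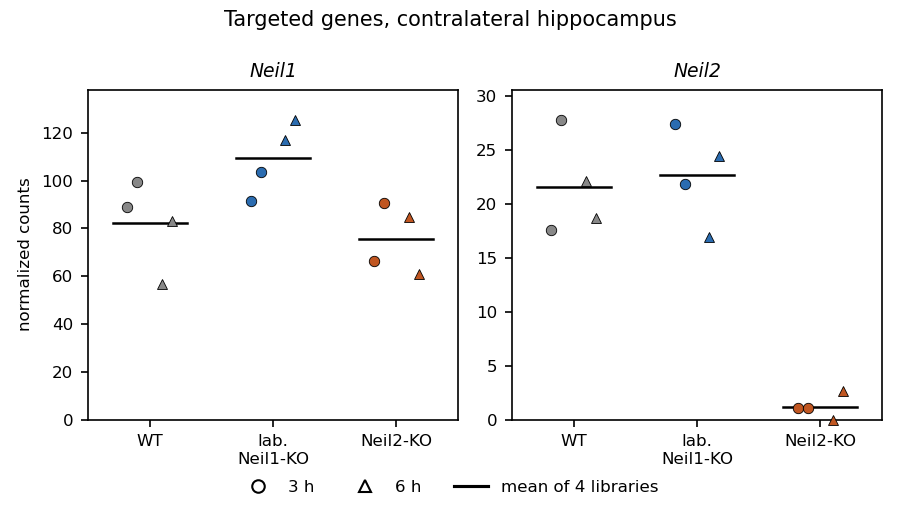
Normalized counts of Neil1 (left) and Neil2 (right) in the 12 contralateral libraries, by genotype, with circles for 3 h, triangles for 6 h and a bar for the mean of 4 libraries. Neil2 is near 0 in Neil2-KO, and Neil1 is no lower in labelled Neil1-KO than in the other genotypes.

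Across 17583 genes, 671 (3.82%) differed at an adjusted p under 0.05 in the limma fit with time as a block, and are referred to as called. Of these, 454 (2.58%) were higher and 217 (1.23%) lower in Neil2-KO, and 36 (0.205%) and 16 (0.091%) of them by at least 2-fold. The counts of called genes in each list below are to be read beside these shares over all genes tested. The 4 and 4 libraries did not overlap for 1302 higher (7.4%) and 862 lower genes (4.9%). Genes of myelin and of the oligodendrocyte lineage, complement and other microglial genes, glucocorticoid targets and activity-regulated neuronal genes were among those higher in Neil2-KO. Genes of immature neurons were among those lower, and genes beside Neil1 and beside Neil2 moved in both directions.

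The number of calls rested on single libraries. Leaving out labelled Neil1-KO 3 h replicate 2 left 78 called genes, labelled Neil1-KO 6 h replicate 2 left 153, Neil2-KO 3 h replicate 2 left 224, labelled Neil1-KO 6 h replicate 1 left 228 and Neil2-KO 3 h replicate 1 left 279. The other omissions gave 517 to 813. With the Xist level as a covariate 270 genes were called. In the 5 libraries with low Xist, 3 were, among them Entpd4 and Entpd4b, and no member of any gene list described below was called. Neil2 itself missed the threshold there (-3.94, adjusted p = 0.141). Log2 fold changes in those 5 libraries were 3.65 for Mobp, 2.45 for Mag and 1.80 for Cldn11, against 3.38, 2.35 and 1.85 in all 8. Other named genes shrank, such as Selplg (0.92 against 1.32) and Fosb (1.45 against 2.09). The 5 libraries are part of the 8 in which these genes were chosen. Of 121 named genes other than Neil1 and Neil2, 38 kept their call in every omission of a library, and none reversed under any alternative. The named genes were chosen by their calls in the same 8 libraries, which makes a reversal unlikely, so nothing is read from its absence. Of the calls, 67.7% were higher in Neil2-KO in the main fit. For the 6 h difference, taken from a fit of 4 group means over the 8 libraries, it was 33.6%.

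Myelin genes led the genes that were higher in Neil2-KO: among called genes with a mean of at least 50 and no overlap, Mobp, Mag and Cldn11 had the largest differences in that direction. Mobp encodes a structural protein of compact myelin, Mag an adhesion molecule of the membrane next to the axon, Cldn11 the tight-junction claudin of the sheath, and Mbp one of its main structural proteins. Of 13 tested markers of myelinating oligodendrocytes, 8 were called higher and 0 lower, with a median log2 fold change of 0.96 over the list. Each omission of a library left 6 to 8 of them called, and the Xist covariate left 7.

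Sequences just before the start of 3 of these genes are shown because the genes moved together. They are the 250 bases upstream of the first annotated start, from RefSeq (GRCm38.p6), 5′ to 3′ on the strand of the gene, for Mobp, Cldn11 and Mag. Mobp lies at chr9:120149492-120149741 on the plus strand, Cldn11 at chr3:31149670-31149919 on the plus strand and Mag at chr7:30914864-30915113 on the minus strand. Mag had 3 entries, of which the first is shown. Capitals mark matches, on either strand, to ACAAAG or ACAATG, letters bound by SOX proteins such as Sox10, and to CTGGCAC or CTGGTAC, letters bound by Myrf.
Mobp: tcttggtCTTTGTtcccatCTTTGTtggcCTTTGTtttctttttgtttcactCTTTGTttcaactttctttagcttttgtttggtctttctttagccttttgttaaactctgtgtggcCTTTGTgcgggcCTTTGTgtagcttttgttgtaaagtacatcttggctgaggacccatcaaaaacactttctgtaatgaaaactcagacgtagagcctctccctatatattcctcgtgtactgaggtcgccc
Cldn11: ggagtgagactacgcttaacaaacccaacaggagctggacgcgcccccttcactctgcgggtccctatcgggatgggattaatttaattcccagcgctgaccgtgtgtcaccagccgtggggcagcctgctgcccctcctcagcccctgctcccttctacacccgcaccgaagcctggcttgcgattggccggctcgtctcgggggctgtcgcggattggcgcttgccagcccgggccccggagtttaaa
Mag: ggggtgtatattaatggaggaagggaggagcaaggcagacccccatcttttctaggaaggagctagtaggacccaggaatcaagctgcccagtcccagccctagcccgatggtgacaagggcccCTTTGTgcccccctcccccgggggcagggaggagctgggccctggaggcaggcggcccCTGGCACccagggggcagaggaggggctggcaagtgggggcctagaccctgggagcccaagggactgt
ACAAAG was found 6 times before Mobp, always as CTTTGT, once before Mag and not before Cldn11, and CTGGCAC once before Mag. Among 32851 promoter windows of this length, 16.5% held ACAAAG, 10.7% ACAATG, 4.19% CTGGCAC and 1.83% CTGGTAC. A match is a run of letters and says nothing on binding in these libraries.

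Mobp read 55.5, 143, 78.4 and 48.8 normalized counts in labelled Neil1-KO and 2302, 972, 367 and 458 in Neil2-KO. Every Neil2-KO library was above every labelled Neil1-KO library, and within Neil2-KO both 3 h libraries were above both 6 h libraries. The log2 fold change was 3.38 ± 0.36 (SE; limma adjusted p = 0.000991).

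Mag read 94.9, 113, 109 and 110 against 1309, 653, 282 and 367, a difference of 2.35 ± 0.30 (limma adjusted p = 0.00278). Cldn11 read 174, 140, 135 and 135 against 1100, 528, 349 and 372, a difference of 1.85 ± 0.22 (limma adjusted p = 0.00209). Mbp read 2753, 2726, 2457 and 2198 against 17490, 9478, 4739 and 4614, a difference of 1.62 ± 0.23 (limma adjusted p = 0.00492). In all 3 genes the groups were apart, the labelled Neil1-KO libraries lay close together and Neil2-KO 3 h replicate 1 was the highest library.

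Ugt8a, which makes the myelin lipid galactosylceramide (1.15 ± 0.16), Cnp, an enzyme of non-compact myelin (0.96), and Myrf, the transcription factor that switches on myelin genes (0.87), were also called. Fa2h, which hydroxylates myelin lipids, was higher by 1.53 ± 0.29, a call lost without either library numbered 2 of labelled Neil1-KO. Mal (0.87, adjusted p = 0.0758), Mog (0.86, adjusted p = 0.255), Ermn (0.65), Trf (0.23) and Aspa (0.09) were not called. Opalin was too low to be tested.

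The list of oligodendrocyte precursor markers, which also holds genes of newly formed oligodendrocytes and of the whole lineage, showed smaller differences. Of 10 tested markers, 6 were called higher and 0 lower, with a list median of 0.43, and 2 stayed called without labelled Neil1-KO 3 h replicate 2 (4 to 7 in the other omissions). Enpp6, an enzyme of newly formed oligodendrocytes, read 189, 143, 141 and 132 normalized counts in labelled Neil1-KO and 462, 279, 258 and 284 in Neil2-KO. The groups did not overlap (1.05 ± 0.16, limma adjusted p = 0.00695). Bcas1, which marks cells starting to myelinate, read 697, 605, 612 and 665 against 1496, 1253, 914 and 1028, again without overlap (0.84 ± 0.11, limma adjusted p = 0.00384).

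Neu4 (0.79), Sox10, the lineage's master transcription factor (0.55), Olig1 (0.40) and Olig2 (0.34) were the other members called, and Neu4 and Sox10 lost their calls without labelled Neil1-KO 3 h replicate 2. Gpr17, of committed precursors, stood at 0.45 (adjusted p = 0.0626). Pdgfra, the receptor that defines early precursors, stood at -0.02 (adjusted p = 0.892), and Cspg4 at 0.24 (adjusted p = 0.161).

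The summed level of the myelinating markers was 5942 to 6804 normalized counts in labelled Neil1-KO and 11210 to 37820 in Neil2-KO. In the 4 WT contralateral libraries it was 8765 to 19770, so the WT range overlapped that of Neil2-KO and lay above that of labelled Neil1-KO. In a fit of the 12 contralateral libraries, where 72 genes (0.409%) separated labelled Neil1-KO from WT and 17 (0.0967%) separated Neil2-KO from WT, Mobp differed from WT by -2.33 in labelled Neil1-KO (limma adjusted p = 0.01) and by 1.05 in Neil2-KO (adjusted p = 0.311). Mbp differed by -1.06 (adjusted p = 0.0251) and 0.56 (adjusted p = 0.3), and Bcas1 by -0.66 (adjusted p = 0.0085) and 0.18 (adjusted p = 0.467). These comparisons share the WT libraries, and whether either knockout lay farther from WT was not tested. On the ipsilateral side, Mobp (2.90), Mag (1.99) and Mbp (1.34) were also higher in Neil2-KO without overlap, while the ranges of Cldn11 overlapped. The summed level there was 6749 to 22870 in WT, 5732 to 10340 in labelled Neil1-KO and 12730 to 18880 in Neil2-KO. The ipsilateral WT range thus overlapped those of both knockouts.

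**Figure D2:**
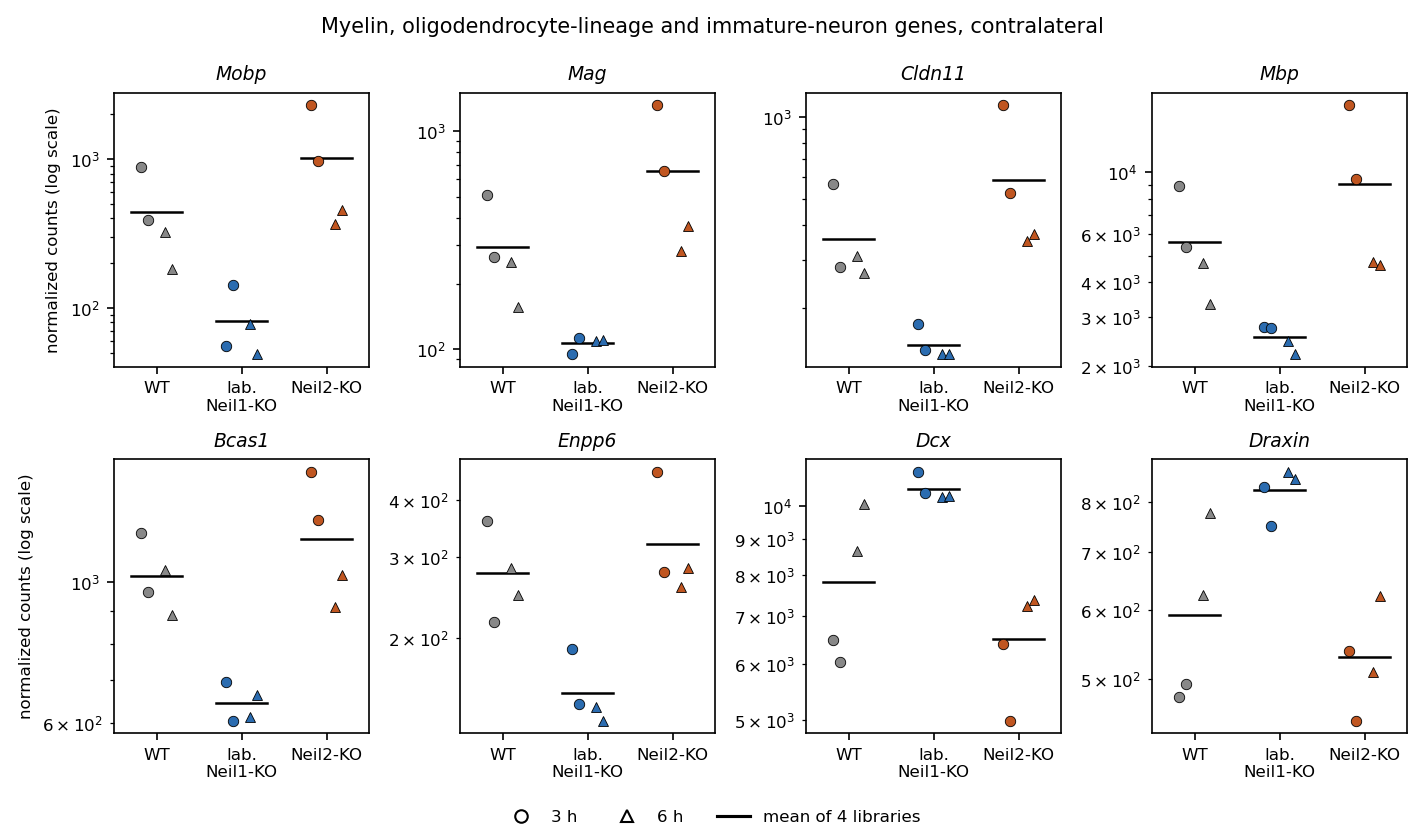
Normalized counts on log axes of 4 myelin genes, 2 oligodendrocyte-lineage genes and 2 immature-neuron genes in the 12 contralateral libraries, with circles for 3 h, triangles for 6 h and a bar for the mean of 4 libraries. The labelled Neil1-KO libraries are lowest for the myelin and lineage genes and highest for Dcx and Draxin, apart from Neil2-KO in each panel.

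Genes of immature neurons moved the other way. Of 12 markers of immature and dividing neural cells, 4 were called lower and 0 higher in Neil2-KO, with a list median of -0.24, and each omission of a library other than Neil2-KO 6 h replicate 2 (which left 5) left 2. Dcx, the microtubule protein of migrating young neurons, read 11190, 10440, 10300 and 10340 normalized counts in labelled Neil1-KO and 6400, 4990, 7227 and 7382 in Neil2-KO. All Neil2-KO libraries were below all labelled Neil1-KO libraries (-0.72 ± 0.10, limma adjusted p = 0.00456).

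Draxin, a guidance cue for growing axons, read 834, 750, 868 and 850 against 539, 448, 510 and 623, also without overlap (-0.65 ± 0.09, limma adjusted p = 0.00659). Top2a, needed to separate chromosomes in dividing cells (-0.42), and Sox11, of newborn neurons (-0.28), were called in all 8 libraries but each lost its call in 7 of the 8 omissions. Eomes, of intermediate progenitors, stood at -0.55 (adjusted p = 0.103) and Mki67, a proliferation marker, at -0.19 (adjusted p = 0.306). Of 29 cell cycle genes, Top2a alone was called (3.45%, against 3.82% of all genes tested), with a list median of -0.24. St8sia2, which makes the polysialic acid of young neurons, was lower by 0.81 on the log2 scale (limma adjusted p = 0.0396), a call that held in 1 of the 8 omissions, the one of Neil2-KO 6 h replicate 1.

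Markers of excitatory neurons and of hippocampal subfields were higher where they were called. Of 11 excitatory neuron markers, 3 were called higher and 0 lower, and 18 hippocampal subfield markers gave 3 and 0, with list medians of 0.16 and 0.12. The lists as a whole ran both ways. Differences were positive for 8 excitatory markers and negative for 3. Among subfield markers 11 were positive and 7 negative, the lowest at -1.07 and not called. Wfs1, a marker of CA1 pyramidal cells, read 1734, 1765, 1802 and 1624 normalized counts in labelled Neil1-KO and 2799, 3228, 2910 and 2651 in Neil2-KO. The groups were far apart (0.74 ± 0.07, limma adjusted p = 0.00064), and the call held in every omission.

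Slc17a7, the glutamate transporter of excitatory vesicles (0.55), Nrgn, a calmodulin-binding protein of spines (0.49), and Camk2a, the synaptic kinase (0.42), were called as well. None of these 3 calls held without labelled Neil1-KO 3 h replicate 2, nor did those of Rgs14 (0.59), a CA2 marker, and C1ql2 (0.69), of dentate granule cells. The excitatory list fell to 1 call without labelled Neil1-KO 6 h replicate 2. Subfield calls fell to 1 without labelled Neil1-KO 3 h replicate 2 or either 3 h replicate of Neil2-KO. Neurod6 (-0.32), Map2 (-0.08) and Tbr1 (-0.10) were not called. Scn2b, a beta subunit of sodium channels, was higher by 0.71 ± 0.11 (limma adjusted p = 0.007) and kept its call in every omission, among 3 of 32 channel genes called.

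Activity-regulated genes were higher in Neil2-KO where called. Of 26 immediate early genes, 7 were called higher and 0 lower (list median 0.28), and 25 activity-dependent effectors gave 8 and 0 (0.44). Jund, an AP-1 subunit, read 1058, 742, 924 and 846 normalized counts in labelled Neil1-KO and 1355, 2107, 1627 and 1505 in Neil2-KO. The groups did not overlap (0.88 ± 0.14, limma adjusted p = 0.00871).

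Ptgs2, which encodes the prostaglandin synthase COX-2, read 223, 271, 221 and 204 against 338, 432, 422 and 461, without overlap (0.84 ± 0.13, limma adjusted p = 0.00728). Fosb read 695, 192, 125 and 81.7 against 845, 1517, 689 and 513. Its ranges overlapped, through labelled Neil1-KO 3 h replicate 1 (2.09 ± 0.35, limma adjusted p = 0.0111). Against WT, Fosb differed by -2 in labelled Neil1-KO (limma adjusted p = 0.0382) and by 0.09 in Neil2-KO (adjusted p = 0.943). Ptgs2 differed by -0.55 (adjusted p = 0.0445) and 0.30 (adjusted p = 0.33). Jund, at -0.47 and 0.41, and Arc, at -0.43 and 0.54, were called against WT in neither knockout. Whether either knockout lay farther from WT was not tested.

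Arc, a regulator of synaptic strength (0.97), Nrn1 (0.57), Vgf (0.64) and Nptx2 (0.81), secreted or surface proteins of active neurons, were called in all 8 libraries. Like Fosb, all 4 lost their calls without labelled Neil1-KO 3 h replicate 2. In a fit of all 24 libraries Arc, Nrn1, Vgf and Nptx2 were not called, and Arc was not called in a fit of the 12 contralateral libraries. Fos (1.38, adjusted p = 0.0515), Npas4 (0.07) and Nr4a1 (0.26) were not called. Without labelled Neil1-KO 3 h replicate 2, 1 gene of each list stayed called. The immediate early list kept 3 without either 6 h library of labelled Neil1-KO or without Neil2-KO 6 h replicate 1, and 4 without either Neil2-KO 3 h replicate. The effector list kept 2 without labelled Neil1-KO 6 h replicate 2, 4 without labelled Neil1-KO 6 h replicate 1 or Neil2-KO 3 h replicate 2, and 5 without Neil2-KO 6 h replicate 1.

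Targets of the glucocorticoid receptor gave 9 higher and 0 lower of 26 (list median 0.43). Mt1, a metal-binding metallothionein, read 1761, 1791, 1919 and 1968 normalized counts in labelled Neil1-KO and 2919, 3932, 2728 and 3216 in Neil2-KO. The groups did not overlap (0.77 ± 0.10, limma adjusted p = 0.00405). Klf9, a transcription factor induced by corticosterone and thyroid hormone, read 4821, 4135, 3626 and 3467 against 6699, 5945, 5000 and 5270, without overlap (0.52 ± 0.07, limma adjusted p = 0.00412).

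Mt2 (0.82), Fam107a (0.59), Tsc22d3, the anti-inflammatory GILZ (0.43), and Fkbp5, a chaperone that restrains the receptor (0.43), were called too, while the receptor genes Nr3c1 (0.12) and Nr3c2 (-0.02) and the targets Sgk1 (0.44, adjusted p = 0.0669) and Per1 (0.28) were not. The list kept 2 calls without labelled Neil1-KO 3 h replicate 2, 4 without labelled Neil1-KO 6 h replicate 1 or either 3 h replicate of Neil2-KO, and 5 without labelled Neil1-KO 6 h replicate 2. The Xist covariate left 4. Dbp, an output gene of the circadian clock, read 207, 230, 214 and 211 against 369, 443, 318 and 332, without overlap (0.75 ± 0.11, limma adjusted p = 0.00633), and 3 more of 20 clock genes were called higher (Usp2, Nr1d1 and Bhlhe41). The clock list kept 1 call without labelled Neil1-KO 3 h replicate 2 or 6 h replicate 1 or Neil2-KO 3 h replicate 2, kept 2 without labelled Neil1-KO 6 h replicate 2 or Neil2-KO 3 h replicate 1, and rose to 8 without Neil2-KO 6 h replicate 2. The labels do not state the hour of day of sampling.

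Microglial genes gave 7 higher and 0 lower of 16 (list median 0.44). The complement subunit gene C1qb read 476, 401, 411 and 420 normalized counts in labelled Neil1-KO and 697, 663, 551 and 570 in Neil2-KO. The groups did not overlap (0.53 ± 0.09, limma adjusted p = 0.0114). Ctss, a lysosomal protease (0.67), Tmem119 (0.68), C1qa (0.56), C1qc (0.55) and Cx3cr1, the fractalkine receptor (0.44), were called too. P2ry12 (0.28), Csf1r (0.30) and Aif1 (0.47) were not.

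No gene of this list stayed called without labelled Neil1-KO 3 h replicate 2, 3 did without labelled Neil1-KO 6 h replicate 2, and 4 without labelled Neil1-KO 6 h replicate 1 or either Neil2-KO 3 h replicate. Selplg, an adhesion ligand of leukocytes and microglia outside that list, was among the 15 highest genes (1.32 ± 0.20, limma adjusted p = 0.00659) and kept its call in every omission. Homeostatic astrocyte markers gave 3 higher and 0 lower of 14, led by S100b (0.58), and reactive astrocyte markers 1 and 0 of 19 (Cd44, 0.74). Cd44, whose ranges overlapped, kept its call in 2 of the 8 omissions. Without labelled Neil1-KO 3 h replicate 2 neither astrocyte list had a call, and the homeostatic list fell to 1 without labelled Neil1-KO 3 h replicate 1 or 6 h replicate 1 or either Neil2-KO 3 h library and rose to 6 without Neil2-KO 6 h replicate 1. In a fit of all 24 libraries no gene of the microglial list was called, and 2 genes of the precursor list and 8 of the myelin list were.

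**Figure D3:**
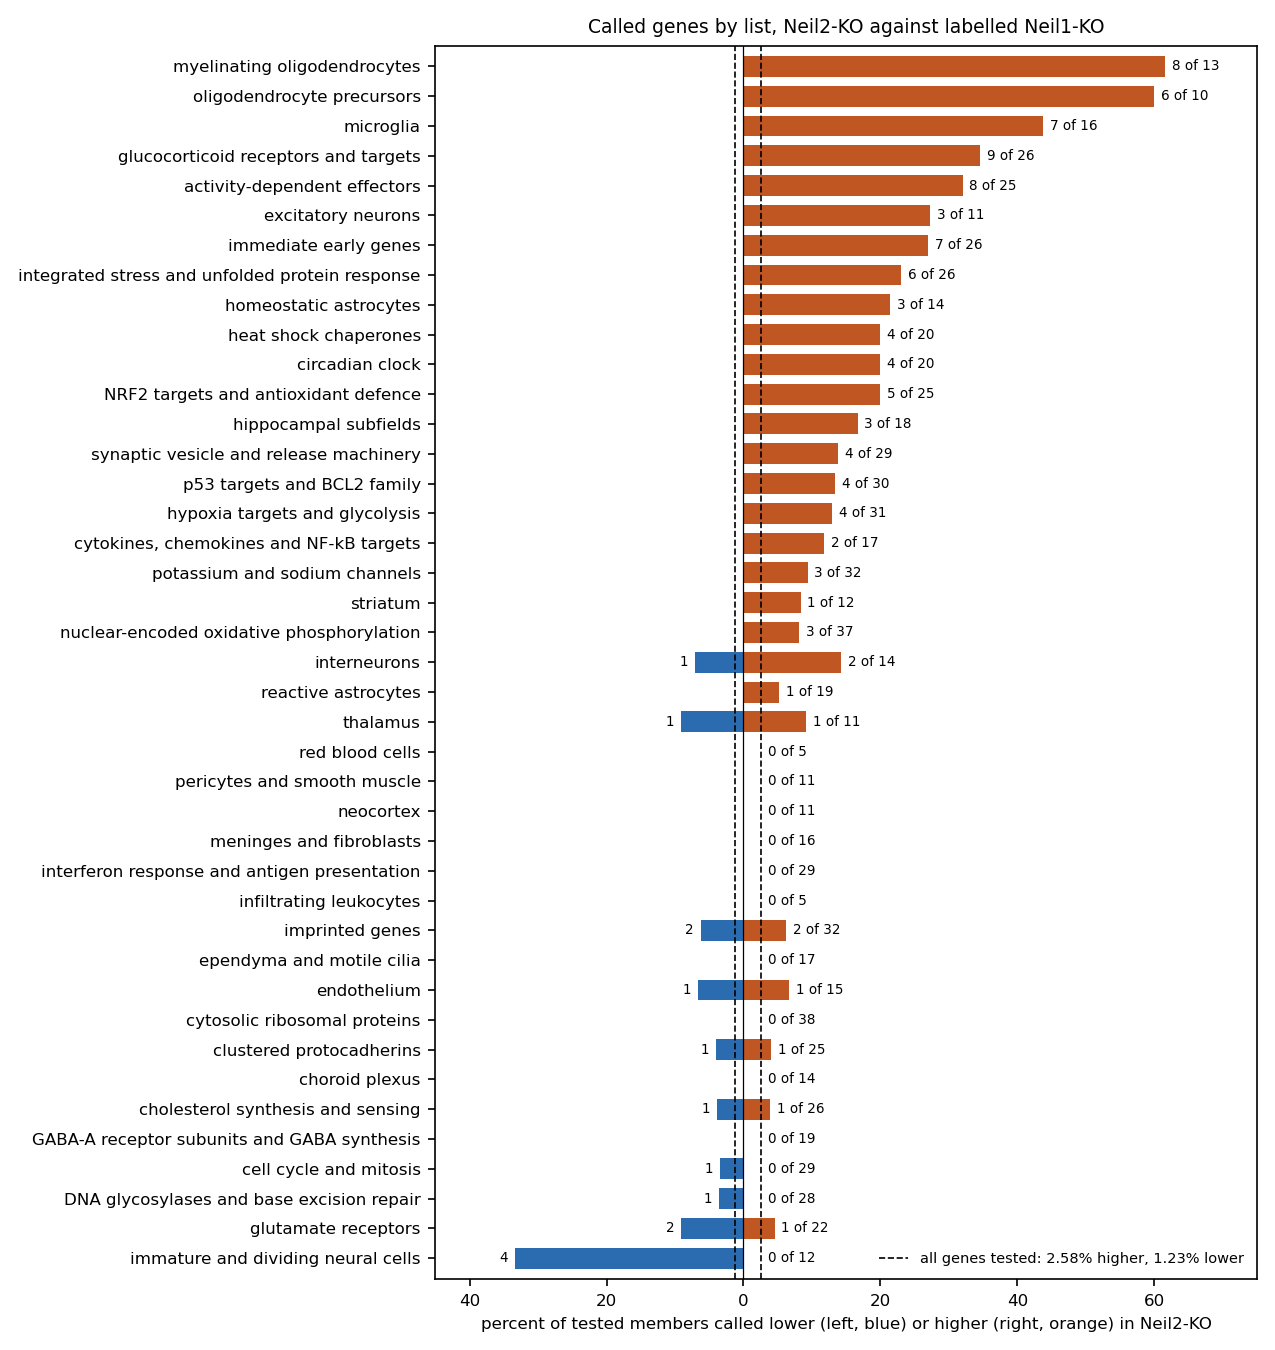
Percent of the tested members of each gene list that were called higher (orange, right) or lower (blue, left) in Neil2-KO, with the counts beside the bars and dashed lines at the share over all genes tested. Myelinating oligodendrocytes (8 of 13) and oligodendrocyte precursors (6 of 10) have the highest shares, and immature and dividing neural cells (4 of 12) the highest share of lower genes.

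The remaining stress lists had fewer calls, which were higher in each case. Heat shock chaperones gave 4 of 20, including the inducible Hsp70 genes Hspa1a (0.72) and Hspa1b (0.77), near-identical copies that may share reads. The others were Cryab (1.39), a gene near Neil1, and Hsph1 (0.27), which kept its call in 0 of the 8 omissions. The list fell to 2 calls without labelled Neil1-KO 3 h replicate 2 and kept 3 or 4 in the other omissions. The integrated stress and unfolded protein response gave 6 of 26, NRF2 targets 5 of 25, p53 targets 4 of 30, and hypoxia targets and glycolysis 4 of 31. Without labelled Neil1-KO 3 h replicate 2, or without its 6 h replicate 2, the stress response, p53 and hypoxia lists had 0 calls. The stress response list also had 0 without labelled Neil1-KO 6 h replicate 1. NRF2 calls fell to 1 without labelled Neil1-KO 3 h replicate 2, to 2 without either of its 6 h libraries and to 3 without its 3 h replicate 1, Neil2-KO 6 h replicate 1 or either Neil2-KO 3 h library. Synaptic vesicle genes gave 4 higher of 29 (13.8%), oxidative phosphorylation genes 3 of 37 (8.11%) and cytokines and their targets 2 of 17 (11.8%), with 0 lower. The share called higher over all genes tested was 2.58%. The lists overlap in called genes. Mt1 and Mt2 were in both the glucocorticoid and NRF2 lists, and Sesn2 in both the stress response and p53 lists. Ptgs2 was in both the effector and cytokine lists, and Slc17a7 in both the excitatory neuron and synaptic vesicle lists. Synaptic vesicle calls fell to 0 without labelled Neil1-KO 3 h replicate 2 and to 1 or 2 in the other omissions, apart from those of either Neil2-KO 6 h library (5 each). Oxidative phosphorylation calls fell to 0 or 1 in the same 6 omissions. Interneuron markers gave 2 higher and 1 lower (Reln, -0.64, called in 3 of the 8 omissions) of 14, the higher ones falling to 0 in the same 6 omissions. Cholesterol genes gave 1 in each direction of 26 (7.69%) and clustered protocadherins 1 in each direction of 25 (8%). The share called over all genes tested was 3.82%. Interferon genes gave 0 of 29, ribosomal protein genes 0 of 38 and GABA-A receptor genes 0 of 19. Glutamate receptors gave 1 higher (Grin1, 0.39) and 2 lower (Grin3a, -0.47, and Grik2, -0.31) of 22. Grin1 was called in 1 of the 8 omissions, Grik2 in 2 and Grin3a in 5. Without Neil2-KO 6 h replicate 1 the list gave 3 higher and 4 lower, and in each other omission 0 higher and 0 to 2 lower.

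Lists of markers of other tissue that a dissection could hold were short, with 5 to 17 tested members. Choroid plexus, meninges, ependyma, neocortex, pericyte, red blood cell and leukocyte markers gave 0 calls. Thalamus markers gave 1 higher and 1 lower of 11 (18.2%) and striatum markers 1 higher of 12 (8.33%). The share over all genes tested was 3.82%, at which 0 calls in lists this short says little. The summed level of the choroid plexus markers was 1842 to 35880 normalized counts in labelled Neil1-KO and 2925 to 36510 in Neil2-KO. With this level as a covariate 661 genes were called and the myelin list again had 8. The level spanned a similar range in both genotypes, so the covariate could remove little of a difference between them. Thalamus markers summed to 6284 to 7330 in labelled Neil1-KO and 5894 to 6513 in Neil2-KO. Whether tissue beside the hippocampus contributed to the myelin difference was not tested.

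The genes near each targeted gene included several of the most certain differences. Within 10 Mb of Neil1 on chromosome 9, 18 of 207 tested genes were called (8.7%), 16 of them higher in Neil2-KO, against 43 of 745 on the rest of the chromosome (5.77%). Within 10 Mb of Neil2 on chromosome 14, 18 of 217 were called (8.29%), 11 higher and 7 lower, against 25 of 492 (5.08%). On the other chromosomes the share was 565 of 15906 (3.55%). Gene order came from the RefSeq table of GRCm38, which matched 99.92% of the tested genes by name.

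Near Neil1 the WT level lay beside that of Neil2-KO for the genes with the largest differences. Htr3a, the subunit of the ionotropic serotonin receptor, read 33, 42.6, 48.6 and 39 normalized counts in labelled Neil1-KO, against 151, 157, 119 and 117 in Neil2-KO and 158, 149, 152 and 129 in WT. The knockouts did not overlap (1.71 ± 0.18, limma adjusted p = 0.00093), and against WT the differences were -1.83 in labelled Neil1-KO (adjusted p = 3.11e-05) and -0.12 in Neil2-KO (adjusted p = 0.745).

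Pts, an enzyme of tetrahydrobiopterin synthesis, read 233, 275, 190 and 189 in labelled Neil1-KO, against 409, 478, 462 and 492 in Neil2-KO and 436, 407, 460 and 480 in WT. Again the labelled Neil1-KO libraries alone stood apart (1.06 ± 0.13 between the knockouts, limma adjusted p = 0.00191). Layn, a hyaluronan receptor, Nxpe4 and Cryab, a small heat shock protein that oligodendrocytes also make, were higher in Neil2-KO by 1.47 ± 0.16, 0.88 ± 0.12 and 1.39 ± 0.17.

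Neo1, the receptor neogenin, went the other way. It read 8781, 8518, 8153 and 8175 in labelled Neil1-KO, against 5498, 4812, 5543 and 5097 in Neil2-KO and 5500, 5960, 5586 and 6525 in WT, so labelled Neil1-KO was the genotype apart (-0.68 ± 0.07 between the knockouts, limma adjusted p = 0.00064). The calls of Htr3a, Pts, Layn, Nxpe4, Cryab and Neo1 held in every omission of a library. Tpm1 (0.34) and Insyn1 (0.43) were also called there, and lost their calls without either library numbered 2 of labelled Neil1-KO (Tpm1 also without its 6 h replicate 1).

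**Figure D4:**
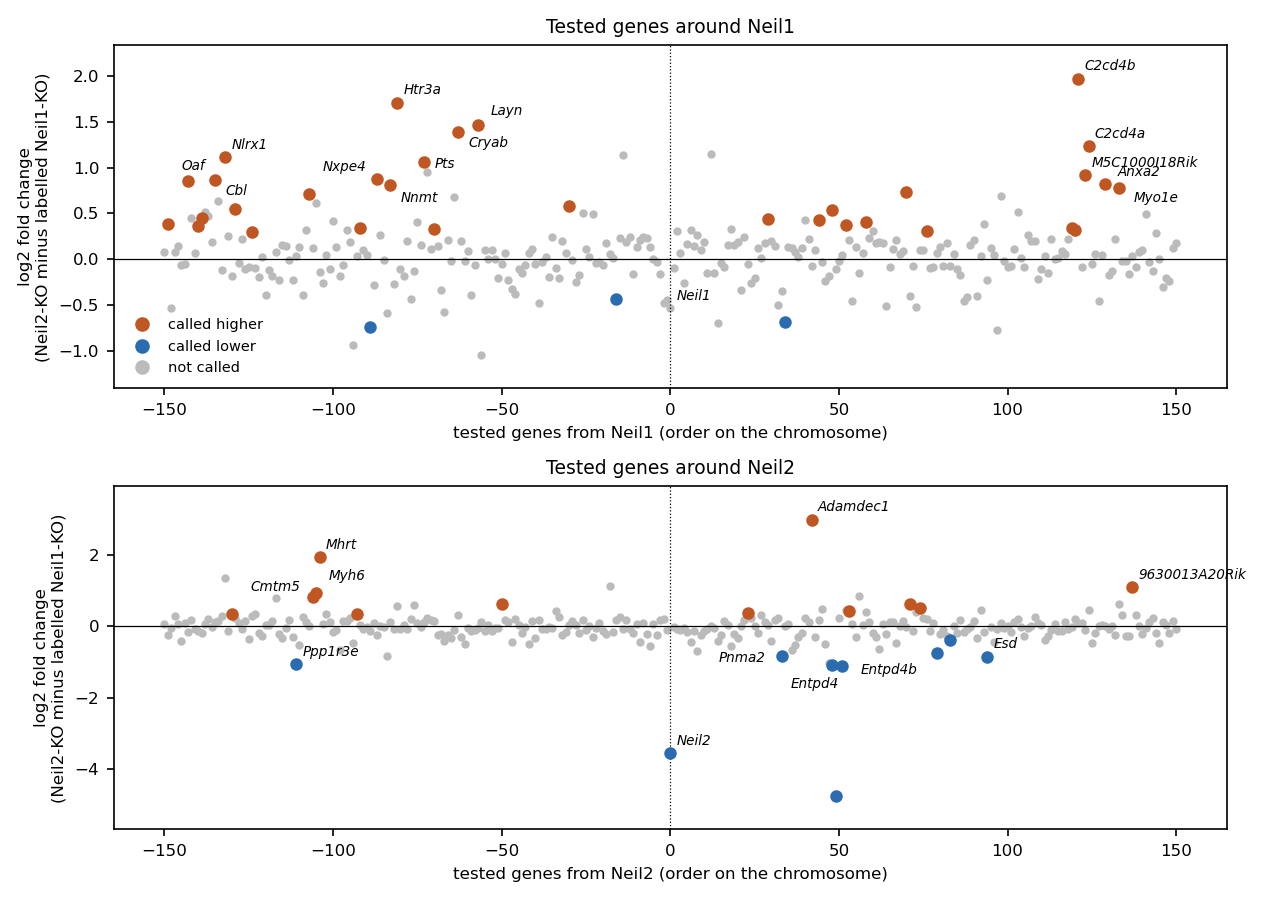
Log2 fold change (Neil2-KO minus labelled Neil1-KO) of tested genes in chromosomal order around Neil1 (top) and Neil2 (bottom), with called genes coloured and those with large differences named. Most called genes around Neil1 are higher in Neil2-KO, while those around Neil2 lie on both sides of 0.

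Near Neil2 the pattern was mixed. Entpd4, a nucleotide-cleaving enzyme of the Golgi and lysosome, read 1294, 1150, 1271 and 1146 normalized counts in labelled Neil1-KO, against 589, 616, 577 and 510 in Neil2-KO and 619, 670, 554 and 613 in WT. Here the labelled Neil1-KO libraries were apart from both others (-1.08 ± 0.08 between the knockouts, limma adjusted p = 0.000114), although the gene lies by Neil2. Entpd4b, its near-identical copy, gave -1.10 ± 0.08, and the split of reads between both is uncertain. Of the 121 named genes other than Neil1 and Neil2, these 2 were called under every alternative. Gm16867, a predicted gene beside them that was singled out after its values were seen, read 125, 139, 147 and 144 against 3.17, 2.13, 4.2 and 9.3 in Neil2-KO, and 13.2, 4.63, 4.81 and 14.9 in WT (-4.76 ± 0.29 between the knockouts, limma adjusted p = 2.47e-05).

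For other genes by Neil2 the Neil2-KO libraries stood apart. Ppp1r3e, a subunit that directs a phosphatase to glycogen, read 486, 524, 519 and 501 in labelled Neil1-KO, against 235, 260, 260 and 215 in Neil2-KO and 361, 500, 460 and 470 in WT. Both other genotypes were above every Neil2-KO library (-1.07 ± 0.10 between the knockouts, limma adjusted p = 0.000421), and Neil2-KO differed from WT by -0.87 (adjusted p = 0.00453) where labelled Neil1-KO differed by 0.19 (adjusted p = 0.621).

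Pnma2 read 1536, 1663, 1541 and 1481 against 977, 836, 821 and 856, with WT at 1249 to 1403 (-0.84 ± 0.07, limma adjusted p = 0.000399). Gfra2, the receptor of neurturin, gave -0.75 ± 0.09 (limma adjusted p = 0.00228), with WT at 611.1 to 694.5 and Neil2-KO at 334.8 to 436.1. Cmtm5, a myelin-associated protein, was higher in Neil2-KO (0.83 ± 0.10, limma adjusted p = 0.00173). These 4 genes were called in every omission, whereas Clu (0.38) and Nudt18 (0.52) lost their calls without labelled Neil1-KO 6 h replicate 2 or Neil2-KO 3 h replicate 2 (Clu also without labelled Neil1-KO 3 h replicate 2). Farther off on chromosome 14, Tmem260 (-1.05 ± 0.13) and Esd, an esterase (-0.85 ± 0.11), were lower in Neil2-KO as well, with Neil2-KO against WT at -1 (limma adjusted p = 0.00172) and -0.73 (adjusted p = 0.00552).

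**Figure D5:**
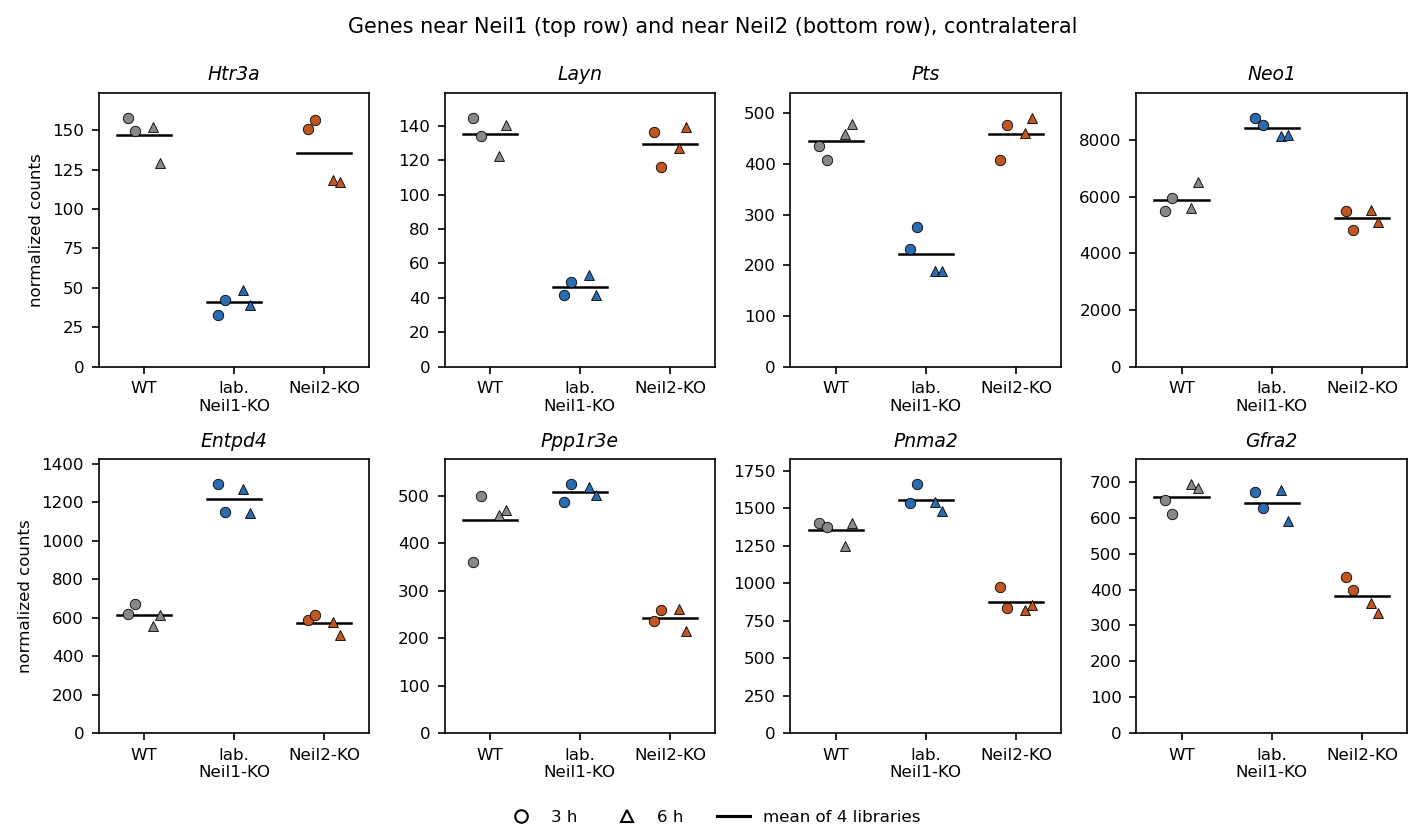
Normalized counts of 4 genes near Neil1 (top) and 4 near Neil2 (bottom) in the 12 contralateral libraries, with circles for 3 h, triangles for 6 h and a bar for the mean of 4 libraries. The labelled Neil1-KO libraries are apart from both other genotypes in the top row and for Entpd4, and the Neil2-KO libraries for Ppp1r3e, Pnma2 and Gfra2.

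Away from these loci, Ndn, an imprinted growth regulator of neurons on chromosome 7, was among the clearest single differences. It read 5501, 5022, 5181 and 4912 normalized counts in labelled Neil1-KO, against 8904, 9296, 8840 and 10560 in Neil2-KO and 8644, 10100, 8942 and 7530 in WT. The labelled Neil1-KO libraries were the low ones (0.86 ± 0.07 between the knockouts, limma adjusted p = 0.000276), and the ipsilateral libraries gave 0.97 without overlap. Its neighbour Magel2, in the same imprinted cluster, was lower in Neil2-KO (-0.63, adjusted p = 0.0156), a call lost without either library numbered 2 of labelled Neil1-KO. Zim1 (-0.62) and Impact (0.29) were the other 2 called among 32 imprinted genes, and Zim1 was called in 3 of the 8 omissions and Impact in 1.

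Cyp26b1, which degrades retinoic acid, read 1080, 1068, 1145 and 1055 in labelled Neil1-KO and 787, 531, 540 and 558 in Neil2-KO, without overlap (-0.87 ± 0.12, limma adjusted p = 0.00385). Its 4 WT libraries followed time, at 640 and 613 at 3 h and 1110 and 1185 at 6 h. Kdr, the endothelial receptor of VEGF, was lower in Neil2-KO (-0.55 ± 0.08, limma adjusted p = 0.0066). Ly6c1, the other endothelial marker called, went the opposite way (0.62, adjusted p = 0.0364, with overlap and called in 2 of the 8 omissions). Of the 15 endothelial markers 13 had a positive difference, with a list median of 0.125, so Kdr moved against its list. Hspb6, a small heat shock protein, was higher in Neil2-KO (1.21 ± 0.17, limma adjusted p = 0.00551). The calls of Cyp26b1, Kdr, Hspb6 and Ndn held in every omission.

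The other genes with the largest differences rested on fewer libraries. Rfx2, a transcription factor of cilia genes (1.37), Kirrel2, a cell adhesion protein (1.27), and Tnfrsf12a, the receptor of TWEAK (1.24), were higher in Neil2-KO, and all 3 calls were lost without labelled Neil1-KO 3 h replicate 2. Scml2 (-1.21), Mir124-2hg, a host transcript of miR-124 (-0.83), Rttn (-0.83), Pop1 (-0.80), Cgn, the junction protein cingulin (-0.77), and Sfi1 (-0.74) were lower. Each of these 6 lost its call without that library as well, and Scml2, Rttn, Pop1 and Sfi1 held theirs in 3 or fewer of the 8 omissions.

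Over the 671 called genes, the WT contralateral mean lay between the means of the knockouts for 642 (95.7%), and for 48.1% of all tested genes. Genes chosen for a gap between the knockouts hold another group between them more often by that choice alone, so nothing is read from this contrast. WT was nearer to Neil2-KO for 363 of the called genes (54.1%; 57.9% of those higher and 46.1% of those lower) and for 46% of all tested genes, given as a description with no test.

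The genotype difference was set against time in a fit with 4 group means. No gene was called for a change of the difference between 3 h and 6 h by limma or by edgeR, 2297 genes (13.1%) had an unadjusted p under 0.05 in limma, and DESeq2 called 151 of 10765 (1.4%). Within times, 539 genes were called at 3 h (423 higher and 116 lower) and 125 at 6 h (42 higher and 83 lower). The myelinating markers gave 10 higher at 3 h and 3 at 6 h.

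Mobp differed by 4.05 at 3 h and 2.71 at 6 h, and Mag by 3.15 and 1.55. The adjusted interaction p-values of these genes missed the threshold, so a change with time was not shown. Leaving out Neil2-KO 6 h replicate 1, whose Ttr level was high, gave 1112 calls for a change with time, 563 upward and 549 downward. Neil2-KO at 6 h was then replicate 2 alone, the library that stood apart on the second principal component and in its Xist level and unnamed reads, so its own deviation and a change with time cannot be told apart. Without Neil2-KO 3 h replicate 2, 3 genes were called.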

How the data were processed

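Hippocampal RNA was sequenced in 24 libraries, of which 8 entered the comparison. The deposited table gives 1 signal per gene and library, a normalized count whose values are read counts that the authors divided by 1 size factor per library, as the file name and values show. Per the submitters' processing notes, Trim Galore, HISAT2, SAMtools, featureCounts and DESeq2 were used with GRCm39 (mm39), with no versions or strand setting stated, so reads of overlapping or antisense genes cannot be told apart. Of the values, 100% were whole multiples of 1 read (tolerance 1e-06), which gave back the reads. Of 33084 lines, 10770 had no gene name and were left out of tests. Genes with a name and with 2 or more of the 8 libraries at 10 or above were tested as log2(value + 1) by limma 3.58.1 (trend) in R 4.3.3, with time as a block (5 residual degrees of freedom) and two-sided Benjamini-Hochberg adjustment. The fit was tested on simulated counts in which no library deviated from the rest. That test therefore cannot speak to the dependence of the calls on single libraries.

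Named were Neil1 and Neil2, the 15 highest and 15 lowest called genes with a mean of at least 50, no overlap and no predicted, clone-based, pseudogene or sex-linked name, up to 4 called members per list by smallest adjusted p, and up to 8 called genes within 10 Mb of each target. Some are given only as counts or are not reported here. Further list members are given as values. The comparison, its gene lists and these rules were chosen with earlier results of these data known. Alternatives were a pseudocount of 5, other filters, TMM scaling, edgeR 4.0.16, DESeq2 1.42.0, other sets of libraries, other covariates and leaving out each library. The covariate for unnamed reads and the low-Xist subset were chosen after seeing the data.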

Additional observations from a re-analysis of the deposited data

Results flagged for a closer look

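Among 252 sets of 4 libraries examined (each named gene and library measure in each genotype), 18 had a library far from the other 3, where chance alone gives about 1 in 20. In labelled Neil1-KO, 3 h replicate 1 was high for Cldn11 (173.6 normalized counts), Vgf (5218), Cox4i1 (5536), Dcx (11190) and C1qc (500.8). Its 3 h replicate 2 was high for Sesn2 (345.1), Scn2b (1014), Rgs14 (500.1) and Slc1a2 (38440), and its 6 h replicate 2 for Gjb6 (580.5). In Neil2-KO, 3 h replicate 1 was high for Cyp26b1 (786.6) and Enpp6 (462.4) and low for Hsph1 (4779). Its 6 h replicate 1 was low for Cx3cl1 (12240), Syn1 (11320), Ly6c1 (313.7) and Cmtm5 (408.1), and its 6 h replicate 2 had the high share of reads on unnamed genes (10.8%).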

How the results depend on the processing

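The 671 calls became 1224 with DESeq2, 1157 with the 12 contralateral libraries in the fit and 402 with a replicate block. They became 270 with the Xist level as covariate and 3 in the 5 low-Xist libraries. The 6 h difference, taken from the fit of 4 group means over all 8 libraries, gave 125. The count test of edgeR on the recovered reads gave 608. The calls ranged from 78 to 813 when 1 library was left out. Same-numbered libraries deviated together only weakly (correlation 0.061 at 3 h and 0.019 at 6 h), so they share a number and not a known pairing. For the change of the difference between times, 0 calls became 151 with DESeq2 and 57 in the low-Xist libraries, and ranged from 0 to 1112 when 1 library was left out. The Neil2 difference was -3.943 in the low-Xist libraries, where it was not called, and DESeq2 gave it no adjusted p. The difference of Neil1 was not called under any alternative. Of 121 other named genes, 2 kept their call under every alternative and 0 reversed. The 5 low-Xist libraries leave few degrees of freedom. Where 1 library remains in a group and time, it is assumed to vary like the others.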
